A study of Mus musculus with 10 samples.

Results

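The mRNA of 9 receptor genes was measured in CD34- hematopoietic stem cells (HSCs) of the mouse: Kit, Tek, Flt3, Il7r, Il6st, Il6ra, Ifnar1, Ifngr1 and Tgfbr2. They are 9 of the 33393 genes in the files, and they were chosen by name as growth-factor and cytokine receptors of stem cells, with earlier results of these data known. RNA was sequenced from cells sorted from bone marrow as lineage-negative, Sca-1-positive, cKit-positive, CD34-negative and Flt3-negative. The mice were 8 weeks old, of the C57BL/6 strain. Control mice were Reg1flox/flox, with both alleles of the Regnase-1 gene (Zc3h12a) floxed, and Reg1Δ/Δ mice were Vav1-iCre; Reg1flox/flox. Both genotypes therefore carried the floxed alleles, and the controls carried no Cre. Vav1-iCre is specific to blood cells and not limited to the sorted ones, so in Reg1Δ/Δ mice it also acted in other blood cells of the marrow. The study compared the genotypes in 2 experiments, with 3 libraries per genotype in experiment 1 and 2 per genotype in experiment 2, which are told apart by the form of the sample titles. The labels do not say whether each library came from its own mouse, so p-values measure the spread between these libraries, which may be partly technical. Values are TPM, a relative level per transcript length that sums to 1000000 in every library, so the sequencing depth behind each value is unknown.

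A receptor of this kind carries a signal from outside the cell to its nucleus. Kit, Tek and Flt3 are receptor tyrosine kinases, which bind stem cell factor, angiopoietins and Flt3 ligand and phosphorylate themselves. Il7r, Il6st, Il6ra, Ifnar1 and Ifngr1 are cytokine receptor chains without a kinase of their own, which work through JAK kinases and STAT factors, and Tgfbr2 is a serine/threonine kinase that starts signaling to SMAD factors. In the marrow, Kit and Tek are known for the maintenance of stem cells, and Flt3 and Il7r for the start of lymphoid development. The sort selected on the proteins of Kit and Flt3 themselves, so their mRNA was measured in cells that all had passed a gate for surface cKit and against surface Flt3.

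The label of the genotype was first checked against the deleted gene. Zc3h12a was at 1.83, 1.28 and 1.60 TPM in the controls of experiment 1 and at 1.48 and 6.07 TPM in those of experiment 2. In the libraries labelled Reg1Δ/Δ it was at 3.54, 2.08 and 2.51 TPM in experiment 1 and at 10.3 and 8.52 TPM in experiment 2. The deleted gene thus went against the label, with a log2 fold change of 0.83 (SE 0.28, FDR = 0.0314, limma) that did not pass in experiment 1 alone (0.52, FDR = 0.0527) or experiment 2 alone (1.30, FDR = 0.265), so directions below are given by label ("labelled Reg1Δ/Δ") and nothing more. The values per gene do not show which exons were read, so they do not test the deletion itself.

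The libraries also stood apart by experiment and by cell type markers. Transcripts annotated as protein coding held 46.2 to 49.1% of all TPM in experiment 1 and 73.5 to 81.1% in experiment 2. Of the stem cell markers, Hlf was at 33.9 to 176.2 TPM in the 5 controls and at 0.791 to 2.72 TPM in the 5 libraries labelled Reg1Δ/Δ, and Procr at 19.8 to 37.3 and 0.108 to 1.36 TPM. Of the 8 tested markers of the stem cell list, 7 fell (FDR under 0.05), where 37.9% of all tested genes did. Fgd5 and Procr, with at least 1 TPM in 0 and 1 of the libraries labelled Reg1Δ/Δ, entered the test through the controls, as did several markers of the lists below, so these counts are descriptions. After quantile normalization, where fewer of all tested genes were called lower, 6 of the 8 were lower, without Slamf1. Ly6a, which encodes Sca-1, was at 68.1 to 108.4 TPM in controls and 50.9 to 449 TPM in libraries labelled Reg1Δ/Δ, and was called higher with median-of-ratios scaling only (1.34, FDR = 0.0482). Mecom was at 16.7 to 52.6 TPM in controls and 1.35 to 2.95 TPM in the others, and Mllt3 fell less, with means of 75.1 and 42.0 TPM. The defining stem cell markers were thus present in the controls, and Hlf, Procr and Mecom were low in the other libraries, although the gate was the same. The 11 markers of the early lymphoid and B lineage summed to 187 to 1224 TPM in the controls of experiment 1 and 1417 to 1611 TPM in those of experiment 2, against 3.06 to 24.2 TPM in the libraries labelled Reg1Δ/Δ. The 8 neutrophil markers summed to 3042 to 13124 TPM against 309 to 968 TPM, and 6 of the 8 fell. Mpo (FDR = 0.0683) and Elane (FDR = 0.111) did not pass, and in experiment 2 Elane was at 182 and 134 TPM in controls and 193 and 158 TPM in libraries labelled Reg1Δ/Δ. The sum of 4 erythroid markers was 2163 to 5370 TPM against 6738 to 8796 TPM, a direction set by Car1, with means of 1739 and 7265 TPM. Klf1 was higher too, and Hbb-bs (means of 1503 and 162 TPM) and Hba-a1 (593 and 96.0 TPM) were lower. All tested markers of monocytes and macrophages (3), megakaryocytes (3) and T and NK cells (2) were lower, and no dendritic cell marker passed the filter. The part of these cell types in the differences below was not tested.

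**Figure D1:**
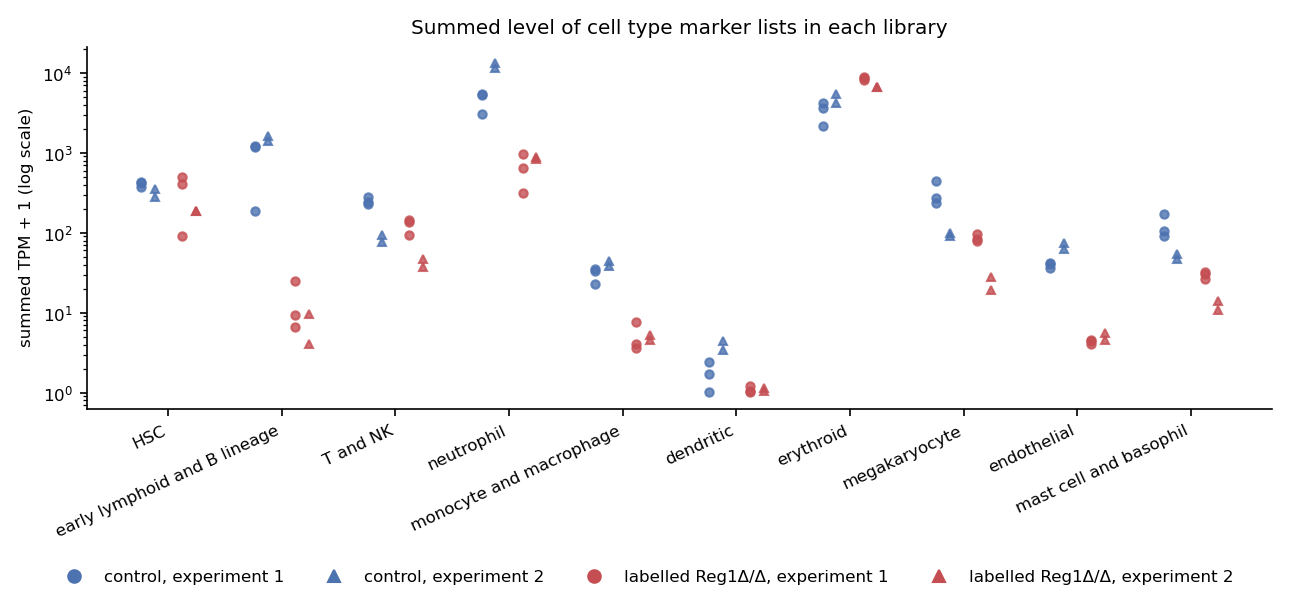
Summed TPM plus 1 (log10 scale) of each cell type marker list in each of the 10 libraries. Each point is 1 library, circles are experiment 1, triangles are experiment 2, blue is control and red is labelled Reg1Δ/Δ. The early lymphoid and B lineage sum is 187 to 1611 TPM in controls and 3.06 to 24.2 TPM in libraries labelled Reg1Δ/Δ, and control replicate 1 of experiment 1 is the control with 187 TPM.

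Of the 9 receptor genes, 7 fell in the libraries labelled Reg1Δ/Δ: Kit, Tek, Flt3, Il7r, Il6st, Ifnar1 and Tgfbr2. Ifngr1, the ligand-binding chain of the interferon gamma receptor, did not pass the test and lay higher in mean. Il6ra, the interleukin-6 binding chain, was too low to enter the test. The test was limma on log2(TPM + 1) over 12874 genes with at least 1 TPM in at least 5 of the 10 libraries, with experiment as a covariate and a Benjamini-Hochberg FDR under 0.05. Of these genes, 37.9% were called lower and 15.0% higher, so that a lower call was common. Every library labelled Reg1Δ/Δ lay below every control of its experiment for the 7 genes that fell, as for 31.4% of all tested genes, and for none of the 8 did every library lie above, as for 12.7% of all tested genes. Tek, Il7r and Il6st had at least 1 TPM in a single library labelled Reg1Δ/Δ and in all 5 controls, so they entered the test through the controls, and the count of 7 is therefore a description. Over the tested genes as a whole, the median change on the log2 scale was -0.25. It was 0.15 after quantile normalization, with 2627 genes lower and 3921 higher, and 0.10 after median-of-ratios scaling, with 3245 lower and 4334 higher, in place of 4880 lower and 1933 higher. The 7 genes remained lower under both scalings (log2 fold changes of -0.83 to -3.36 and -0.90 to -3.65). In a sorted population, fewer cells that express a receptor and less of its mRNA per cell cannot be told apart.

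**Figure D2:**
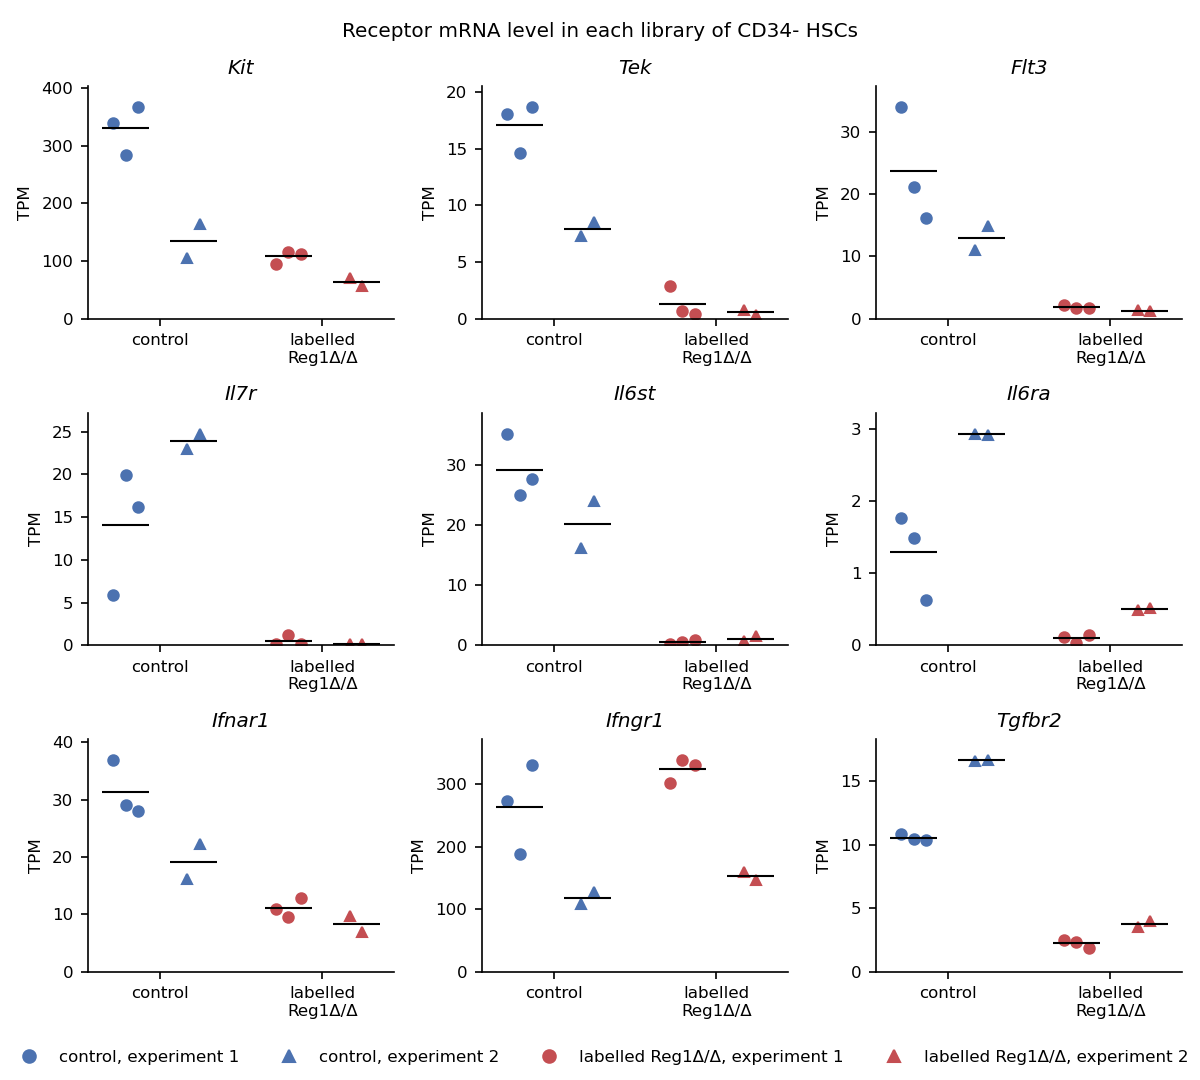
TPM of the 9 receptor genes in each library. Each point is 1 library, circles are experiment 1, triangles are experiment 2, blue is control, red is labelled Reg1Δ/Δ, and the horizontal lines are means within an experiment. In experiment 1, Kit reaches 284 to 367 TPM in controls and 95.6 to 116 TPM in libraries labelled Reg1Δ/Δ, while the Ifngr1 points overlap.

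Kit (ENSMUSG00000005672), the receptor of stem cell factor, lies on the plus strand at chr5:75574916-75656722 of GRCm38. It was at 339, 284 and 367 TPM in the controls of experiment 1 and at 106 and 165 TPM in those of experiment 2. In the libraries labelled Reg1Δ/Δ it was at 95.6, 116 and 112 TPM and at 70.0 and 56.1 TPM. Each experiment separated by label without overlap, although the lowest control of experiment 2 lay below the highest labelled Reg1Δ/Δ library of experiment 1. The log2 fold change was -1.39 (SE 0.17, FDR = 1.08e-04). In experiment 1 alone it was -1.60 (SE 0.15, FDR = 3.89e-04) and in experiment 2 alone, with 2 libraries per label, it was -1.07 (SE 0.30, FDR = 0.121) and did not pass. Mast cells carry Kit too, and the 4 listed markers of mast cells and basophils summed to 46.1 to 173 TPM in controls and 9.91 to 31.3 TPM in libraries labelled Reg1Δ/Δ. Most of that sum was Cpa3, with means of 83.6 and 18.3 TPM. Mcpt8 was called lower with overlapping groups and lost its call under both other scalings, Prss34 was below the filter, and Ms4a2 was at 1.44 and 2.24 TPM in mean (log2 fold change 0.45, FDR = 0.262, and 1.26, FDR = 0.00411, after quantile normalization). Their part in the Kit difference was not tested.

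Kit has a pair of coding transcripts, which together held 98.9% of its TPM in the controls of experiment 2 and 38.7% in those of experiment 1. The longer coding sequence holds a stretch of 12 bases, at chr5:75639147-75639158, that the shorter one lacks, the classical alternative splice of the extracellular part of the receptor close to the membrane. The stretch is shown in capitals with 9 coding bases on either side, because it is the only coding difference between both.
Kit longer coding transcript (ENSMUST00000005815): catttaaagGTAACAACAAAGagcaaatcc
Kit shorter coding transcript (ENSMUST00000144270): catttaaagagcaaatcc
In experiment 2 the shorter form held 52.3% of the gene's TPM in controls and 50.9% in libraries labelled Reg1Δ/Δ, and the longer form 46.6% and 48.5%. The single libraries labelled Reg1Δ/Δ of experiment 2 differed widely, however, with 36.6% and 65.1% for the shorter form, so means of that pair say little. In experiment 1 the same forms held 21.4% and 19.5%, and 17.3% and 18.3%. The shorter form fell by 1.48 on the log2 scale (SE 0.19, FDR = 5.35e-04) and the longer by 1.31 (SE 0.27, FDR = 0.00744). The balance of the forms itself was not tested.

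The rest of the Kit signal of experiment 1 sat on transcripts annotated with a retained intron, most of it on short ones. The one with the highest TPM, ENSMUST00000136002, is 392 bases long, lies at chr5:75641083-75645984 and has 93.1% of its bases in coding exons of Kit. It was at 121, 96.7 and 116 TPM in the controls of experiment 1 and at 0 TPM in all libraries of experiment 2. The coding transcripts alone summed to 107 to 145 TPM in the controls of experiment 1 and 106 to 161 TPM in those of experiment 2. The controls of the experiments thus overlapped on coding transcripts and not on the gene sum. With coding transcripts only, the log2 fold change of Kit was -1.43 (SE 0.18, FDR = 6.45e-05).

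**Figure D3:**
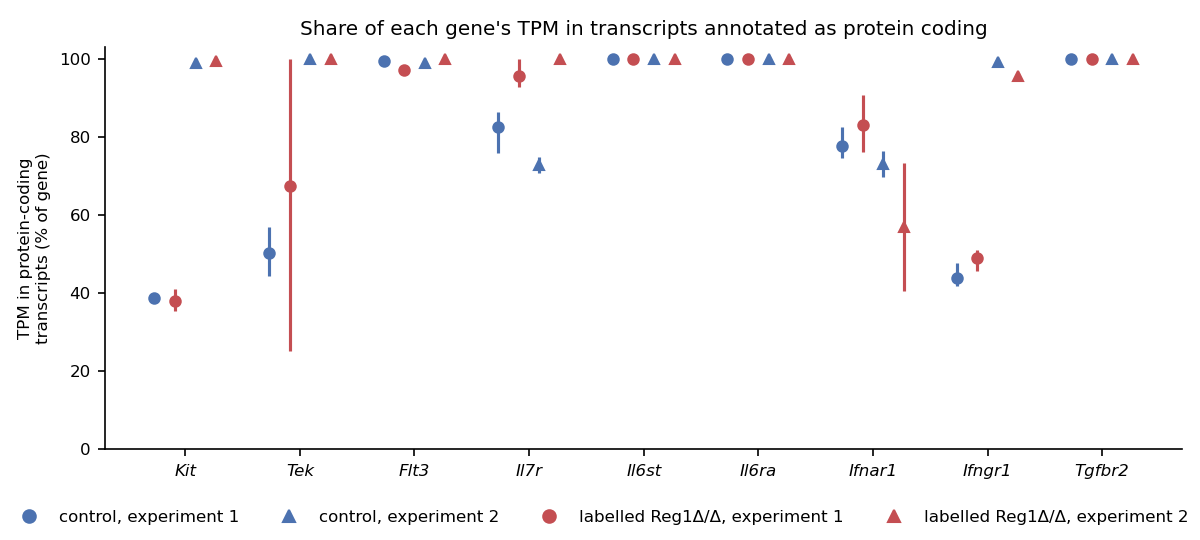
Share of each gene's TPM in transcripts annotated as protein coding, in percent, for each label and experiment. Points are means over libraries and vertical lines run from the lowest to the highest library. Kit, Tek and Ifngr1 controls have 38.7%, 50.2% and 43.9% in experiment 1 and 98.9%, 100% and 99.2% in experiment 2.

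Tek (ENSMUSG00000006386), the angiopoietin receptor Tie2, lies at chr4:94739289-94874976 on the plus strand. It was at 18.1, 14.6 and 18.7 TPM in the controls of experiment 1 and at 7.28 and 8.52 TPM in those of experiment 2. The libraries labelled Reg1Δ/Δ had 2.87, 0.664 and 0.394 TPM and 0.771 and 0.362 TPM. All 5 lay below all 5 controls. The log2 fold change was -2.88 (SE 0.27, FDR = 2.09e-05). Of the 2.87 TPM in labelled Reg1Δ/Δ replicate 1 of experiment 1, 2.15 TPM came from a processed transcript of 361 bases. On coding transcripts the range was 0.362 to 0.771 TPM over all 5 libraries labelled Reg1Δ/Δ, against 7.28 to 8.91 TPM in controls, and the log2 fold change was -2.99 (SE 0.14, FDR = 1.13e-07). Endothelial cells use Tek too, and of 4 other markers of theirs, Pecam1 and Emcn were tested and fell, while Cdh5 and Kdr were below the filter. Pecam1 had a mean of 28.9 TPM in controls and 3.52 TPM in libraries labelled Reg1Δ/Δ, Emcn at 12.6 to 15.8 and 0.0363 to 0.179 TPM, and Cdh5 was listed at 0 in all 5 libraries labelled Reg1Δ/Δ, at 0.00601 to 0.317 TPM in the controls of experiment 1 and at 9.57 and 10.6 TPM in those of experiment 2. Their part in the Tek difference was not tested.

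Flt3 (ENSMUSG00000042817), the receptor of Flt3 ligand, lies at chr5:147330741-147400489 on the minus strand. It was at 33.9, 21.1 and 16.1 TPM in the controls of experiment 1 and at 11.0 and 14.8 TPM in those of experiment 2, although the sort had gated against its protein. In the libraries labelled Reg1Δ/Δ it was at 2.21, 1.78 and 1.74 TPM and at 1.41 and 1.16 TPM. The labels did not overlap in either experiment, and the log2 fold change was -2.85 (SE 0.20, FDR = 3.01e-06). One coding transcript, ENSMUST00000049324, held 97.1 to 100% of its TPM in group means. The antisense gene Gm26597 shares 936 bases with Flt3 and reached 1.27 TPM at most.

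Il7r (ENSMUSG00000003882), the alpha chain of the interleukin-7 receptor, lies at chr15:9505788-9530176 on the minus strand. Its controls were at 5.93, 19.9 and 16.2 TPM in experiment 1 and at 23.0 and 24.8 TPM in experiment 2. In the libraries labelled Reg1Δ/Δ it was at 0.178, 1.15 and 0.096 TPM and at 0.117 and 0.136 TPM. Control replicate 1 of experiment 1, with the lowest Il7r among controls, also had the lowest sum of the early lymphoid and B lineage markers (187 TPM), and labelled Reg1Δ/Δ replicate 2 of experiment 1, with the highest Il7r of its label, had the highest sum of that label (24.2 TPM). The log2 fold change was -3.75 (SE 0.36, FDR = 2.15e-05), and without that control it was -4.08 (SE 0.23, FDR = 5.05e-06). All 9 tested markers of that list fell, and their part in the Il7r difference was not tested.

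Il6st (ENSMUSG00000021756) encodes gp130, the signal-transducing chain shared by the receptors of interleukin-6, interleukin-11, oncostatin M and leukemia inhibitory factor, and lies at chr13:112464070-112510086 on the plus strand. It was at 35.2, 24.96 and 27.6 TPM in the controls of experiment 1 and at 16.3 and 24.1 TPM in those of experiment 2. It was at 0.133, 0.527 and 0.865 TPM and at 0.704 and 1.51 TPM in the libraries labelled Reg1Δ/Δ. All 5 lay below all controls, and the log2 fold change of -3.94 (SE 0.25, FDR = 1.75e-06) was larger in size than that of Il7r here, and smaller with a pseudocount of 0.1, in experiment 2 alone, and without control replicate 1 or labelled Reg1Δ/Δ replicate 2 of experiment 1. Only 0.551% of tested genes had a lower value. Il6st, Il7r and Tek were mostly below 1 TPM in the libraries labelled Reg1Δ/Δ, where a pseudocount of 1 understates their changes. That rank depends on the same scale. In the controls of experiment 1, 65.6% of its TPM sat on a coding fragment of 201 bases, ENSMUST00000183513, and in experiment 2, 60.3% sat on ENSMUST00000070731, of 5207 bases. That longer transcript was at 3.71 to 5.93 TPM and at 10.6 and 13.3 TPM in the controls, at 0.103 to 0.406 TPM in the libraries labelled Reg1Δ/Δ, and fell by 2.70 on the log2 scale (SE 0.23, FDR = 6.93e-05).

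Il6ra (ENSMUSG00000027947), which binds interleukin-6 and hands it to gp130, lies at chr3:89864059-89913196 on the minus strand. It was low throughout, at 1.77, 1.48 and 0.635 TPM in the controls of experiment 1 and at 2.94 and 2.93 TPM in those of experiment 2. The libraries labelled Reg1Δ/Δ had 0.120, 0.0343 and 0.139 TPM and 0.487 and 0.520 TPM. In each experiment the labels were separate, but only 4 libraries reached 1 TPM. Without the filter, over all 33393 genes, the log2 fold change was -1.17 (SE 0.15, FDR = 7.71e-04, limma), a scale on which a pseudocount of 1 understates the change at such levels.

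Ifnar1 (ENSMUSG00000022967), the first chain of the type I interferon receptor, lies at chr16:91485238-91507441 on the plus strand. It was at 36.9, 29.2 and 28.1 TPM in the controls of experiment 1 and at 16.1 and 22.3 TPM in those of experiment 2. It was at 10.9, 9.61 and 12.8 TPM and at 9.81 and 6.98 TPM in the libraries labelled Reg1Δ/Δ, below all controls. The log2 fold change was -1.29 (SE 0.15, FDR = 8.96e-05). Experiment 1 alone gave -1.42 (SE 0.17, FDR = 8.53e-04), while experiment 2 alone gave -1.10 (SE 0.27, FDR = 0.0977) and did not pass.

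Ifngr1 (ENSMUSG00000020009) lies at chr10:19591949-19610229 on the plus strand. Its controls were at 272, 188 and 331 TPM in experiment 1 and at 107.96 and 126.8 TPM in experiment 2. In the libraries labelled Reg1Δ/Δ it was at 301, 338 and 331 TPM and at 158.8 and 146.2 TPM. The labels overlapped in experiment 1, where control replicate 3 lay within the range of the other label, and were separate in experiment 2. The log2 fold change was 0.35 (SE 0.15, FDR = 0.0758), with a 95% interval of 0.01 to 0.68 before adjustment. The result depended on scaling, since median-of-ratios scaling gave 0.76 (SE 0.13, FDR = 8.31e-04) and quantile normalization 0.20 (SE 0.14, FDR = 0.273). It also depended on control replicate 3 of experiment 1, without which it was 0.45 (SE 0.14, FDR = 0.0241). On coding transcripts only it was 0.40 (SE 0.16, FDR = 0.0597).

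Tgfbr2 (ENSMUSG00000032440), the ligand-binding receptor of transforming growth factor beta, lies at chr9:116084293-116175360 on the minus strand. It had the smallest SE of the 8 tested genes, and was at 10.8, 10.4 and 10.4 TPM in the controls of experiment 1 and at 16.59 and 16.61 TPM in those of experiment 2. The libraries labelled Reg1Δ/Δ had 2.51, 2.33 and 1.85 TPM and 3.52 and 4.03 TPM. The log2 fold change was -1.86 (SE 0.09, FDR = 5.78e-07), with -1.84 in experiment 1 alone and -1.88 in experiment 2 alone. Tgfbr2 has a pair of coding transcripts, of which the longer carries a stretch of 75 bases at chr9:116158271-116158345. It is printed 5′ to 3′ in capitals with 9 flanking bases, as the only coding difference between them.
Tgfbr2 longer coding transcript (ENSMUST00000061101): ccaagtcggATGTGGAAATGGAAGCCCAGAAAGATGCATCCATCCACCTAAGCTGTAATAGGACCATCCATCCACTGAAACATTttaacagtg
Tgfbr2 shorter coding transcript (ENSMUST00000035014): ccaagtcggttaacagtg
The longer form held 36.7% and 30.6% of the gene's TPM in the controls of experiments 1 and 2 and 33.6% and 31.2% in the libraries labelled Reg1Δ/Δ. Both fell, the longer by 1.48 on the log2 scale (SE 0.13, FDR = 8.02e-05) and the shorter by 1.70 (SE 0.13, FDR = 3.86e-05).

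**Figure D4:**
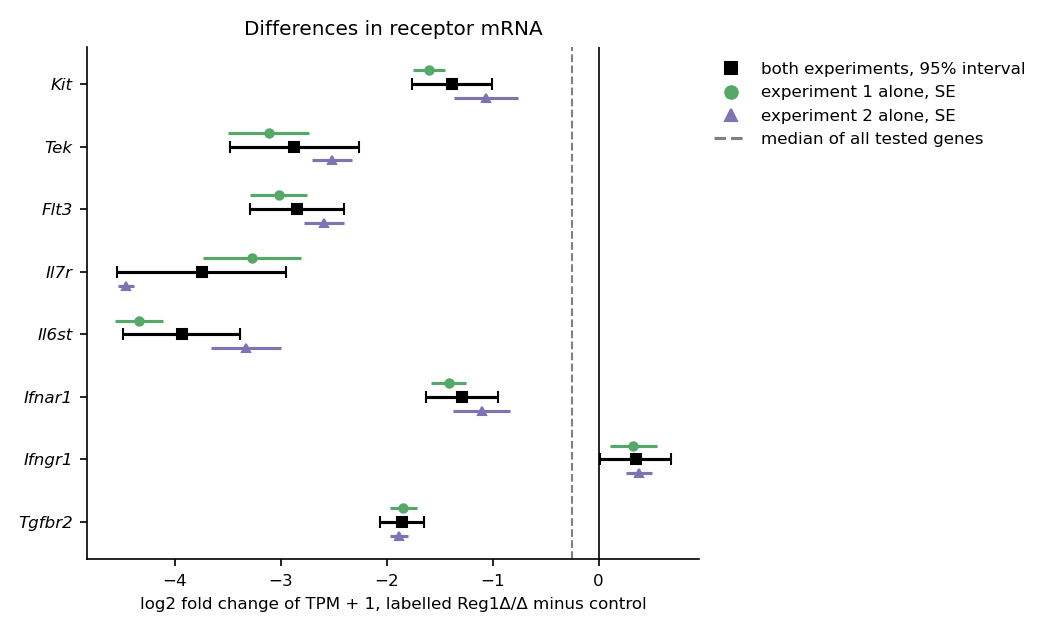
Log2 fold change of TPM + 1, labelled Reg1Δ/Δ minus control, for the 8 tested receptor genes. Black squares are the fit over both experiments with 95% intervals, green circles and purple triangles are experiments 1 and 2 alone with SE, and the dashed line is the median of all tested genes (-0.25). The 7 genes that fell lie between -1.29 and -3.94, and Ifngr1 lies at 0.35.

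The exact permutation test within experiments has 120 assignments of labels and cannot give a two-sided p below 0.0167. It gave that value for Kit, Tek, Flt3, Il7r, Il6st, Il6ra, Ifnar1 and Tgfbr2 and 0.05 for Ifngr1 (0.0188 and 0.05 after Benjamini-Hochberg adjustment over the 9 genes). A gene whose labels do not overlap within either experiment must reach 0.0167, so the test adds nothing to that separation. Of all tested genes, 31.4% were separated in this way as lower and 12.7% as higher. The size of the effect was not shown to differ between the experiments for any of the 8 tested genes, as interaction FDR values ran from 0.350 for Il6st to 0.971 for Ifngr1. Of all tested genes, 0.443% had an interaction FDR under 0.05. Il6st differed by 1.01 (SE 0.40) on the log2 scale between the experiments, with the larger fall in experiment 1.

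The order of the receptors by TPM changed with the label. In the controls of both experiments Kit stood first and Ifngr1 second, with overlapping ranges, and both stood above all others. In the libraries labelled Reg1Δ/Δ, Ifngr1 stood first without overlap, at 323 ± 19.4 TPM (SD, n = 3) against 107.7 ± 10.7 TPM for Kit in experiment 1 and at 152.5 ± 8.92 TPM (SD, n = 2) against 63.0 ± 9.82 TPM in experiment 2. Ifnar1 came next in that label, again without overlap, at 11.1 ± 1.62 TPM in experiment 1 and 8.40 ± 1.997 TPM in experiment 2. Below it stood Tgfbr2 and Flt3, which overlapped in experiment 1 and not in experiment 2. In the controls of experiment 1, Ifnar1, Il6st, Flt3, Tek, Il7r and Tgfbr2 followed Ifngr1 between 31.4 and 10.5 TPM in mean, with each overlapping its neighbor, and Il6ra stood apart as the lowest. In the controls of experiment 2 the order was Il7r, Il6st, Ifnar1 and Tgfbr2, between 23.9 and 16.6 TPM and each overlapping its neighbor, and then Flt3 (12.9 TPM), Tek (7.90 TPM) and Il6ra (2.93 TPM), each without overlap. On coding transcripts only, Tek of the controls of experiment 1 was at 8.50 TPM, below Tgfbr2 at 10.5 TPM. Among the 12874 tested genes, Kit ranked between percentiles 90.6 and 96.8 of level in controls and 82.3 and 88.2 in the libraries labelled Reg1Δ/Δ. Ifngr1 kept to percentiles 90.7 to 96.3 and 92.9 to 96.1, whereas Il6st ranged from 51.5 to 64.9 and from 2.07 to 20.9.

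The files list 41 transcripts of the 9 genes, of which 21 had at least 1 TPM in at least 5 libraries. Of the 21, 13 were called lower and 1 higher, where 14.9% of all 31937 tested transcripts were called lower and 6.40% higher. The count is a description, since the called transcripts of Tek, Il7r and Il6st were below 1 TPM in every library labelled Reg1Δ/Δ and entered through the controls, and both retained-intron transcripts of Kit called lower were at 0 in all of experiment 2. The transcript called higher was ENSMUST00000164591 of Ifngr1, annotated as a target of nonsense-mediated decay, with a log2 fold change of 1.53 (SE 0.36, FDR = 0.0141). It was at 2.91, 3.79 and 5.44 TPM in the controls of experiment 1 and at 0 in both of experiment 2, and at 9.03, 5.49 and 12.8 TPM and 2.59 and 6.64 TPM in the libraries labelled Reg1Δ/Δ. It held 1.58% to 3.08% of the Ifngr1 TPM in the groups in which it was above 0. The coding transcript of Ifngr1, ENSMUST00000020188, was at 114, 79.3 and 158 TPM in the controls of experiment 1 and at 107.96 and 125 TPM in those of experiment 2, against 153, 154 and 166 TPM and 153 and 139 TPM in the libraries labelled Reg1Δ/Δ. Its log2 fold change of 0.42 (SE 0.19, FDR = 0.141) did not pass.

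The sequences just upstream of the receptor genes were set beside these differences. Windows of 250 bases before the RefSeq start (GRCm38.p6) were searched on both strands for AGATAA (bound by GATA factors), CCGGAAG (ETS factors), TGTGGT (RUNX factors), GGGCGG (the GC box) and TTCNNNGAA (STAT factors). These were in 10%, 6.9%, 14.0%, 32.7% and 7.0% of all 32851 windows. All 9 genes matched the table by symbol. The windows of 4 genes are printed 5′ to 3′ on the strand of the gene, with matches in capitals: Il6st and Tek, which both fell and differ in CpG content, and both interferon receptor chains, of which one fell and the other did not pass. They lie at chr13:112463820-112464069 (plus), chr4:94739039-94739288 (plus), chr16:91484965-91485214 (plus) and chr10:19591699-19591948 (plus).
Il6st upstream window: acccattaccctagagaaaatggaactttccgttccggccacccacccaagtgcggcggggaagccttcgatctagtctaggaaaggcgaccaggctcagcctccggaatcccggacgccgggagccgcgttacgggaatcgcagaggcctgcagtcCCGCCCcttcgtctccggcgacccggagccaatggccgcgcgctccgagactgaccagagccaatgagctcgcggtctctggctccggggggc
Tek upstream window: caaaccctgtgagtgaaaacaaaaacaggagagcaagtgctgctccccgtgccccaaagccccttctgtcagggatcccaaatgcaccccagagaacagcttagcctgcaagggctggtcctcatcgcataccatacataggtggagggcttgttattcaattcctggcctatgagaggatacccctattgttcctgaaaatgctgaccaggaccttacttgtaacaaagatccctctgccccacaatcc
Ifnar1 upstream window: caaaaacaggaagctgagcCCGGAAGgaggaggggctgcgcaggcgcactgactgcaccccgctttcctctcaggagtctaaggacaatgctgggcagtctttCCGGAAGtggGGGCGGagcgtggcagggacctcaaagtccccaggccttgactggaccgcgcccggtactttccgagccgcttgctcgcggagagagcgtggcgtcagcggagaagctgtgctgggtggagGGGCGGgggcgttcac
Ifngr1 upstream window: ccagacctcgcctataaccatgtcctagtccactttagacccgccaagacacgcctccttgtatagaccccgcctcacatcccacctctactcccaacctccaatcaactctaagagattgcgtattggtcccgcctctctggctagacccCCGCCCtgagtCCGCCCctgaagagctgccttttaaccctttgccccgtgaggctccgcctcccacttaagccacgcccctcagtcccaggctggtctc
The Ifnar1 window holds 2 matches to the ETS letters and 2 GC boxes, Ifngr1 holds 2 GC boxes, Il6st holds 1, and Tek holds none of the 5 motifs. Of the others, Kit has 1 GC box, Il7r 1 match to the STAT letters, Il6ra 1 to the GATA letters, and Flt3 and Tgfbr2 have none. CpG dinucleotides numbered 26 in Il6st, 19 in Ifnar1, 18 in Il6ra, 17 or 18 in Kit by its RefSeq start, and 13 in Flt3. They numbered 12 in Tgfbr2, 11 in Ifngr1, 2 in Tek and 1 in Il7r, where the median of all windows was 6. No one motif was in the windows of all genes that fell, and a match of letters is no evidence of binding.

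Ligands of these receptors were mostly below the filter. Of 16 listed ligands, 15 were in the files and 5 were tested, with 2 lower, 1 higher and 2 not called, a share of lower genes near the 37.9% of all tested genes, and a median log2 fold change of -0.51 beside -0.25 over all tested genes (0.32 after quantile normalization and -0.27 after median-of-ratios scaling). Angpt1, the agonist of Tek, was at 52.0 to 99.2 TPM in controls and 6.30 to 9.44 TPM in the libraries labelled Reg1Δ/Δ, a log2 fold change of -3.06 (SE 0.17, FDR = 9.60e-07). Tgfb1 changed by -0.78 (SE 0.20, FDR = 0.00897) and lost its call with median-of-ratios scaling (-0.37, FDR = 0.139). Osm, which signals through gp130, was higher by 0.62 (SE 0.20, FDR = 0.0275), with groups that overlapped. The 10 ligands below the filter, among them Kitl, Il6, Il7 and Ifng, had means of 0 to 0.929 TPM under either label.

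Of 10 tested partners and relatives of the receptors, 8 were lower and none higher, beside 37.9% and 15.0% of all tested genes, with a median of -1.34 (-0.76 and -0.97 under the other scalings, where 7 of 10 were lower and Tgfbr3 was higher after quantile normalization). Under those scalings the medians of all tested genes were 0.15 and 0.10, with fewer genes lower and more higher than without them. Tie1 and Csf1r had at least 1 TPM in 0 and 1 of the libraries labelled Reg1Δ/Δ and so entered the test through the controls, and the count is a description. Tie1, the relative of Tek, changed by -3.40 (SE 0.16, FDR = 4.39e-07), with 13.8 to 27.8 TPM in controls and 0.489 to 0.879 TPM in the other label. Csf1r (-1.99, FDR = 9.46e-05), Il11ra1 (-1.57, FDR = 2.54e-04), Pdgfrb (-1.45, FDR = 3.11e-05) and Crlf2 (-1.43, FDR = 3.48e-05) followed. In the pairs of receptor chains, Ifnar1 fell while Ifnar2 had -0.19 (SE 0.14, FDR = 0.268). Ifngr1 was not called while Ifngr2 fell by 1.24 (SE 0.17, FDR = 2.09e-04), at 10.7 to 29.1 TPM in controls and 3.89 to 15.3 TPM in the other label. Tgfbr2 fell, and so did Tgfbr1 (-1.11, SE 0.12, FDR = 4.57e-05), which lost its call after quantile normalization (-0.27, FDR = 0.0733). Il2rg, the common gamma chain that pairs with Il7r, changed by -0.82 (FDR = 0.00367) and lost its call with median-of-ratios scaling (-0.40, FDR = 0.0566). A difference between the chains of a pair was not tested. The relatives Acvr1, Bmpr1a, Lifr and Osmr were below the filter, with at most 1.49 TPM in mean.

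Downstream of the receptors, of 11 kinases and STAT or SMAD factors 6 were lower and 5 not called, beside 37.9% lower and 15.0% higher of all tested genes, with a median of -0.43 (-0.10 after quantile normalization, with 4 lower and 2 higher, and -0.03 after median-of-ratios scaling, with 3 lower and 1 higher). The genes called higher there were Stat2 under both scalings and Tyk2 after quantile normalization, neither of which was called without them. Over all tested genes the medians under these scalings were 0.15 and 0.10, with fewer genes lower and more higher than without them. Jak3 (-1.83, FDR = 6.30e-06), Smad3 (-1.72, FDR = 5.24e-06) and Smad4 (-1.41, FDR = 1.16e-04) had the largest falls and stayed lower under both other scalings. Jak1 was at -0.61 (FDR = 0.00581) and lost its call with median-of-ratios scaling (-0.20, FDR = 0.191). Jak2 was at -0.43 (FDR = 0.00707) and lost it under both (-0.02, FDR = 0.881 after quantile normalization and -0.03, FDR = 0.785 with median-of-ratios scaling). Smad2 was called lower at -0.35 (FDR = 0.0199) and lost its call under both, with -0.08 (FDR = 0.547) by quantile normalization and a turned sign of 0.06 (FDR = 0.653) by median-of-ratios scaling.

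Of 8 adaptors of receptor tyrosine kinases, 3 were lower and 5 not called, a share near the 37.9% of all tested genes, with a median of -0.22 near the -0.25 of all tested genes. Under the other scalings its medians were -0.08 and 0.14, with 3 lower and 3 higher in each. All tested genes had medians of 0.15 and 0.10 there, with fewer lower and more higher than without the scalings. Plcg1, a phospholipase recruited by activated receptors, changed by -2.30 (FDR = 1.04e-05), Pik3r1, the regulatory subunit of PI3 kinase, by -1.29 (FDR = 6.91e-04) and Lyn, a Src family kinase, by -0.84 (FDR = 1.17e-04). Of 14 negative regulators, 11 were lower (Smad6, below 1 TPM in every library labelled Reg1Δ/Δ, entered through the controls), 1 higher and 2 not called, beside 37.9% lower and 15.0% higher of all tested genes, with a median of -1.24 (-0.60 with 7 lower and 2 higher, and -0.90 with 11 lower and 1 higher, under the other scalings). Socs2 (-2.42, FDR = 1.76e-05) and Cish (-2.06, FDR = 0.0014), both targets of STAT5, and Sh2b3 (-1.47, FDR = 4.55e-05), the adaptor Lnk that restrains Kit, were among the largest, with Smad7 (-1.38, FDR = 0.0014), Ski (-1.26, FDR = 4.66e-05) and Socs3 (-1.25, FDR = 0.0028). Smad7 (-0.50, FDR = 0.124) and Socs3 (-0.38, FDR = 0.274) lost their calls after quantile normalization, as did Cblb and Skil. Usp18, an interferon-induced inhibitor of Ifnar2 signaling, was higher by 1.14 (SE 0.24, FDR = 0.0031), at 6.64 to 11.7 TPM in controls and 14.0 to 32.9 TPM in the libraries labelled Reg1Δ/Δ. Of 4 genes of receptor shedding or endocytosis, Bace1 (-1.75, FDR = 5.54e-04), Btrc (-0.91, FDR = 4.18e-04) and Adam17 (-0.32, FDR = 0.0468) were lower and Adam10 was not called. Of all tested genes, 37.9% were called lower. Adam17 lost its call under both other scalings, at -0.03 (FDR = 0.849) by quantile normalization and 0.08 (FDR = 0.543) by median-of-ratios scaling. The median of the list was -0.61, beside -0.25 over all tested genes. Under the other scalings it was -0.32 and -0.21, beside 0.15 and 0.10 over all tested genes, with 2 of 4 lower in each.

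**Figure D5:**
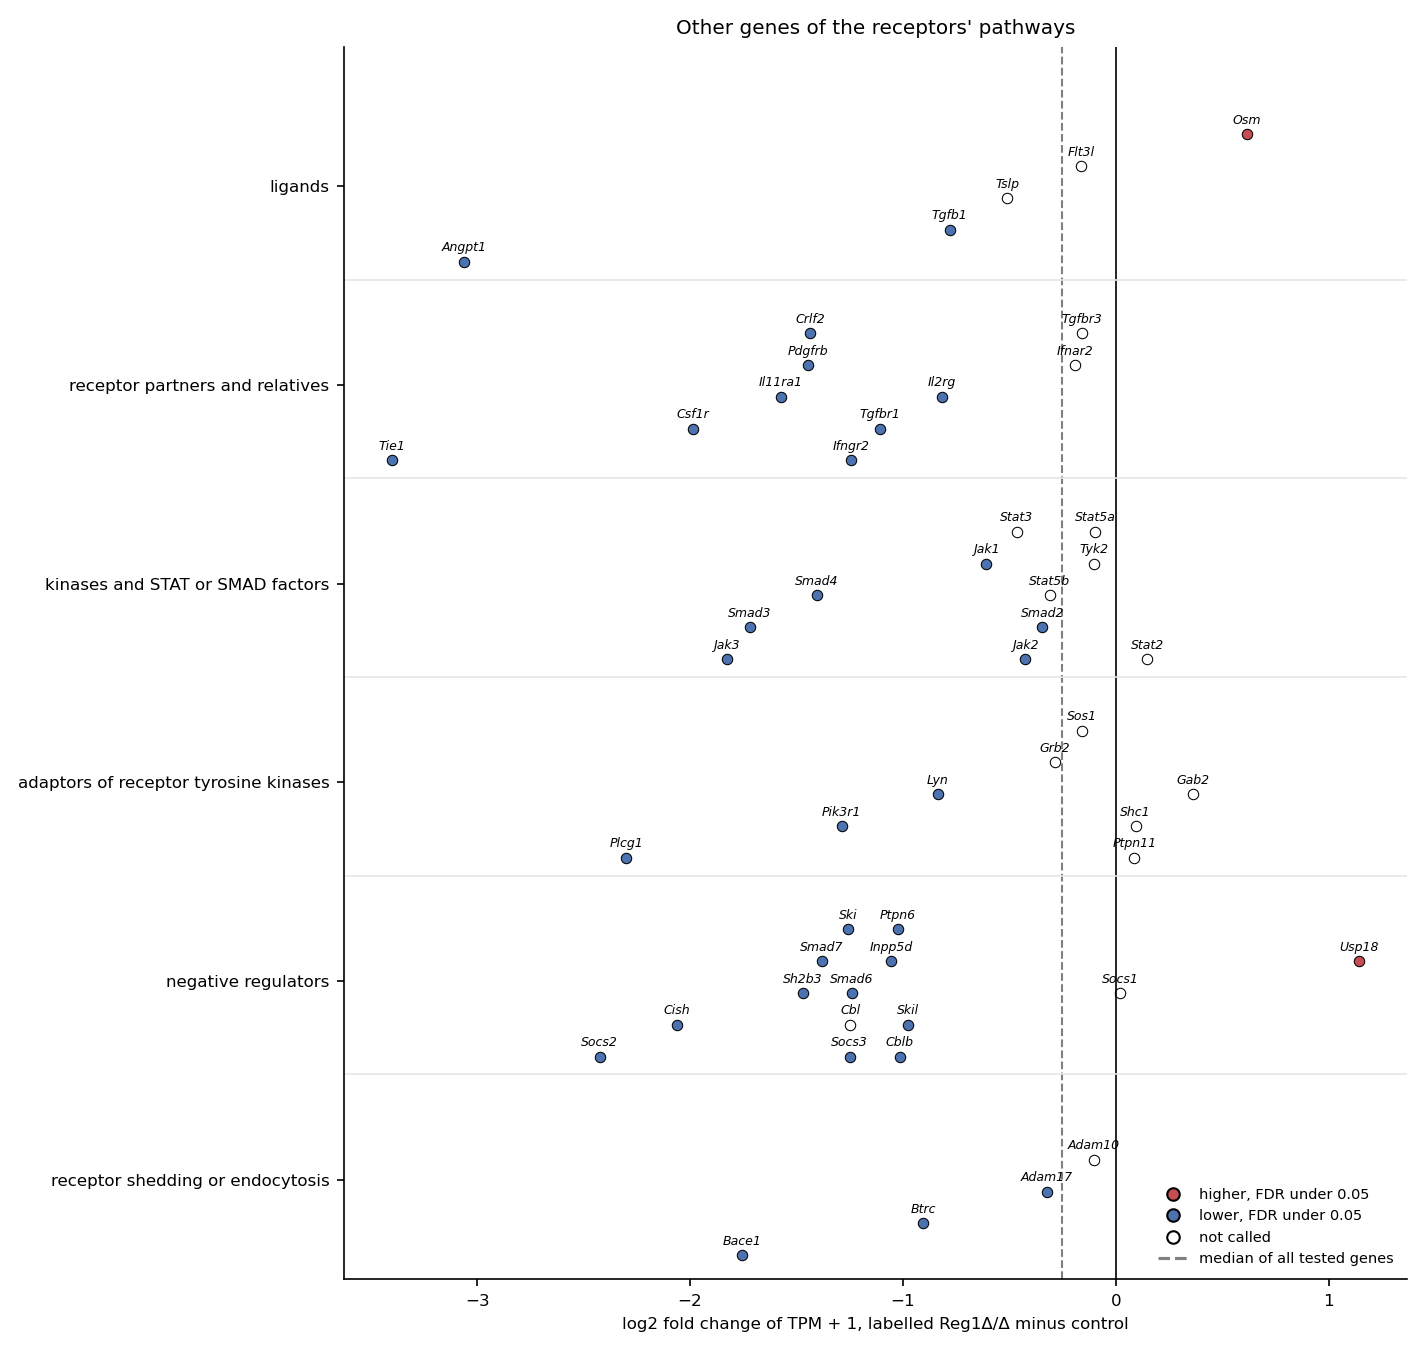
Log2 fold change of TPM + 1, labelled Reg1Δ/Δ minus control, of the tested genes in 6 lists of the receptors' pathways. Each point is 1 gene, blue is lower and red higher at FDR under 0.05, white is not called, the dashed line is the median of all tested genes, and the height of a point within a list has no meaning. Tie1 lies farthest to the left at -3.40 and Usp18 farthest to the right at 1.14.

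For each tested receptor, the genes with the most similar pattern were named by Pearson's r over the 10 libraries, on log2(TPM + 1) centered on each experiment, among 7316 protein-coding genes with a mean of at least 10 TPM. The values describe the pattern only, as all points share the same libraries and the labels set most of the spread. For Il7r they were Cd79a (r = 0.999) and Igll1 (r = 0.995), both genes of the early B lineage. For Kit they were P2rx4 (r = 0.992), a purinergic receptor, and Msn (r = 0.991), which encodes moesin. For Tek they were Impa2 (r = 0.988) and Aktip (r = 0.987), and for Flt3 Sesn1 (r = 0.997) and Agpat2 (r = 0.996). For Il6st they were Myo1f (r = 0.998) and Suv420h1 (r = 0.997), for Tgfbr2 Pstpip1 (r = 0.998) and Il16 (r = 0.998), and for Ifnar1 Rin3 (r = 0.993) and Capn5 (r = 0.992). All of these fell as well, with log2 fold changes from -0.78 to -6.81. For Ifngr1 they were Chd1l (r = 0.975) and Eif4b (r = 0.974), neither of which passed the test, at 0.36 (FDR = 0.0675) and 0.23 (FDR = 0.134).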

How the data were processed

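The 10 samples were RNA-seq libraries of total RNA from sorted CD34- HSCs. The authors mapped reads to GRCm38 with STAR, used the GENCODE M17 annotation and computed TPM with Salmon 0.9.1. The values they deposited are log2 of TPM plus 1 for each transcript, as read from the values themselves. The submitters' processing notes name Salmon and mm10. For cDNA synthesis the labels give a later kit version than the study's methods do, and no source used here ties a kit to an experiment. TPM was recovered as the power of base 2 minus 1 and summed per gene identifier. TPM keeps no read numbers, so no counting interval is given. Samples were grouped by genotype labels and by title into 2 experiments, from labels that name no animal. The header of labelled Reg1Δ/Δ replicate 2 of experiment 2 repeats the name of replicate 1, although its values differ.

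Genes and transcripts with at least 1 TPM in at least 5 libraries entered linear models in limma 3.58.1, run under R 4.3.3 (pseudocount 1, experiment as covariate, Benjamini-Hochberg threshold 0.05). Single genes were also tested by an exact permutation test within experiments. All 9 members were named whatever their values. Of each pathway list, up to 6 called genes by size of change were named, with genes below the filter. Other genes (second receptor chains, Usp18, and genes whose sign turned with the scaling) were chosen after their values were seen. For each member, the 2 genes of closest pattern were named. Members and lists were chosen with earlier results of these data known. Some genes of the pathway and marker lists are not reported here and were left out of the lists' counts, sums and medians. Scripts were checked on simulated data. Positions are from GENCODE M21 on GRCm38, a later release than the authors', and upstream sequences from RefSeq (GRCm38.p6). Python 3.11.15, pandas 2.3.3 and matplotlib 3.10.9 were used. Alternatives tried were a pseudocount of 0.1, no filter, a filter in every library, no covariate, each experiment alone, 2 other scalings, coding transcripts only, a variance trend, a replicate block and each library left out.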

Additional observations from a re-analysis of the deposited data

How the results depend on the processing

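Kit and Ifnar1 lost their call with experiment 2 alone (-1.07, FDR = 0.121, and -1.10, FDR = 0.0977), a fit with 2 libraries per label. Ifngr1 gained one with median-of-ratios scaling (0.76, FDR = 8.31e-04) and without control replicate 3 of experiment 1. Receptor genes called lower were 7 as reported and 4 with at least 1 TPM in every library, which leaves 9412 genes to test. Tek, Il7r and Il6st did not enter that test, so their calls were not lost in it. The median log2 fold change of those genes was -0.14. Their share called lower is not given, so the count of 4 is a description. Receptor genes called higher were 0 as reported and 1 with median-of-ratios scaling. Of all genes, 4880 lower and 1933 higher became 3052 and 716 without the covariate, 1581 and 452 with experiment 2 alone, 2627 and 3921 with quantile normalization, and 3245 and 4334 with median-of-ratios scaling. Receptor transcripts called higher were 0 without the covariate and 2 with median-of-ratios scaling. The share of all tested transcripts called in these settings is not given, so these counts are descriptions. The difference of effect between experiments turned sign for Ifngr1 with median-of-ratios scaling (-0.059) and for Tgfbr2 with a pseudocount of 0.1 (0.092), with an FDR of 0.952 and 0.904. The cause was not tested.

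With each library left out in turn, Ifngr1 ran from 0.23 to 0.45, its difference between experiments from -0.13 to 0.27, that of Tgfbr2 from -0.13 to 0.036, and receptor genes called higher from 0 to 1. The other receptors' log2 fold changes kept direction and call in these fits. With a replicate block, 4545 genes were lower and 1703 higher, and 7 receptor genes and 11 receptor transcripts were lower and 1 transcript higher. The share of all tested transcripts called with the block is not given, so its transcript counts are descriptions. The block changed no receptor's call. Same-numbered libraries had deviations that correlated at 0.0334, 0.175 and 0.0683 in experiment 1 and at -0.0544 in experiment 2, so the numbers were not shown to pair them. Without counts, the depth that limits the low values of Il6ra, Il7r, Il6st and Tek is unknown.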
